A study of Mus musculus with 10 samples.

Results

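The genes described here encode the subunits and activators of the proteasome, the protease that degrades proteins tagged with ubiquitin. They were taken as the rows of the deposited count table whose symbol was on a list of 41 names. All 41 were found, of 24544 genes in the table. The list held 7 genes of the alpha ring of the 20S core particle, 4 genes of the beta ring whose products carry no active site, the 3 constitutive catalytic beta genes and their 3 immunoproteasome counterparts. It also held 17 genes of the 19S regulatory particle (6 base ATPases, 3 other base subunits and 8 lid subunits), 3 chaperones that assemble the 19S base, and 4 genes of the 11S and PA200 activators.

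The RNA came from long-term hematopoietic stem cells (LT-HSCs) of the bone marrow of mice aged 2 to 3 months that carry the Hoxb5-mCherry reporter, a fluorescent marker of Hoxb5 transcription. All cells sorted were negative for lineage markers, CD48, FLK2 and CD34 and positive for cKIT, SCA1, CD150 and Hoxb5, so both groups share the reporter allele and that gate. The groups differed in surface neogenin-1, the product of Neo1: 5 libraries were NEO1+Hoxb5+ and 5 were NEO1-Hoxb5+, called NEO1+ and NEO1- here. Each library was made from 250 to 500 cells pooled from 2 mice by Smart-seq2, a full-length method that starts from poly(A) RNA and here amplified the cDNA by 18 cycles of PCR. The labels do not say whether libraries of a group share mice, so the p-values measure the spread between these libraries.

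The 26S proteasome is a 20S barrel, capped by a regulatory particle at one or both ends. The outer alpha rings gate the barrel and the inner beta rings hold the proteolytic sites. The 19S particle binds ubiquitin chains, removes them and threads the substrate into the barrel with a ring of ATPases. Interferon-gamma replaces the 3 catalytic beta subunits with immunoproteasome forms, which alter the peptides made for MHC class I, and raises the 11S activator. Hematopoietic cells make immunoproteasome subunits without stimulation, and hematopoietic stem cells are known for a low rate of protein synthesis and a low tolerance of misfolded protein.

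Library totals ran from 21.2 M to 38.95 M counts, and the ribosomal RNA precursor gene Rn45s held 27.9% to 42.4% of them. The Rn45s share was 37.7%, 33.7%, 29.2%, 27.9% and 33.1% in NEO1+ libraries 1 to 5. It was 42.3%, 42.4%, 40.5%, 30.7% and 36.0% in NEO1- libraries 1 to 5. Genes with a count numbered between 12800 and 13808 in NEO1+ libraries and between 11477 and 13147 in NEO1- libraries. The part of these library differences in the fold changes was not tested. The protocol in the labels names no molecular identifiers, so PCR copies count as reads and depth covers counting error only. The lowest count of any member in any library was 360, for Psme4, and the highest 11989, for Psmb8. All 41 members passed the filter on low counts. Levels are given as CPM, the count per M of the library size after TMM scaling. The TMM factors were lowest in NEO1- libraries 2 and 1, at 0.872 and 0.889. Neo1, the sorting marker, stood at 64.8, 48.6, 59.6, 12.5 and 52.1 CPM in NEO1+ libraries 1 to 5 and at 18.9, 11.5, 12.2, 4.56 and 6.15 CPM in the NEO1- libraries. The library labelled NEO1+ 4 therefore lay within the NEO1- range, and values without the libraries numbered 4 are given where they matter. Transcripts of 12 stem cell genes of the gate and lineage summed to between 2368 and 2718 CPM in the NEO1+ libraries and between 2355 and 2777 CPM in the others, and all 12 passed the filter on low counts. Of these 12 genes 7 were above 0 on the log2 scale (NEO1+ over NEO1-) and 5 below, and 2 had an unadjusted p under 0.05, both higher in NEO1+.

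Promoter sequences are shown for the members with an unadjusted p under 0.05 in the comparison below, Psma3, Psme2, Psmb4 and Psmb3, so that the letters can be set beside their values. Each is the RefSeq sequence (GRCm38.p6, the mm10 build) of up to 200 bases before the transcription start site, without bases that lie inside the GENCODE gene. Capitals mark matches, on either strand, to the CCAAT box (CCAAT, bound by NF-Y) and to an interferon response element (GAAA, any 2 bases and GAAA again, the core bound by IRF proteins).
Psma3 (chr12:70974423-70974620, plus strand): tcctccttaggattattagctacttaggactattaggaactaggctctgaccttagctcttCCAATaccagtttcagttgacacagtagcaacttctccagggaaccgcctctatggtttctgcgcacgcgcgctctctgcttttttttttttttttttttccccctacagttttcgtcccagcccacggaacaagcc
Psmb3 (chr11:97703234-97703398, plus strand): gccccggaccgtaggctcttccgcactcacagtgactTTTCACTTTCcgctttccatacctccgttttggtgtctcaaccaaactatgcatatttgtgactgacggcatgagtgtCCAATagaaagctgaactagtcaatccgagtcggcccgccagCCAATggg
Psmb4 (chr3:94886962-94887158, minus strand): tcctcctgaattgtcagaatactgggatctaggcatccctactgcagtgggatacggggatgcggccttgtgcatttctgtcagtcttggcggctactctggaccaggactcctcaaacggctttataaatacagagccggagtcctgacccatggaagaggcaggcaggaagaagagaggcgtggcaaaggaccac
Psme2 (chr14:55591114-55591301, minus strand): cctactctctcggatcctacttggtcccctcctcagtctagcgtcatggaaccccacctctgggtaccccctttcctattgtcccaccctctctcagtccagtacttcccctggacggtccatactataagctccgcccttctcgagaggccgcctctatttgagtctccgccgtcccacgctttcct

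The Psma3 window held a CCAAT box 139 bases before the start site. In the Psmb3 window a CCAAT box lay 85 bases and another 43 bases before the start, and TTTCACTTTC, the reverse complement of the interferon response element, lay 163 bases before it. The Psmb4 and Psme2 windows held no match, which says only that these letters are not in them. Another motif, TGACNNNGC, the core of the antioxidant response element through which NRF1 acts on proteasome genes, matched none of the 4 windows shown.

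RefSeq promoter windows of 300 bases (250 before to 50 after the start) were matched for 35 of the 41 members. Bases inside the GENCODE gene were not removed from these windows. Some windows lay wholly inside it, among them those of Psmd5, Psmd9, Psmd13, Psmb8, Psmb9 and Psme1. The Psmd9 window (chr5:123227940-123228239) lay far inside the gene (chr5:123169413-123250131). No window was matched for Psmb1, Psmb2, Psmb7, Psmc3, Psmd3 and Psmd7. CCAAT was found on either strand in 13 of the 35 (37.1%) and in 41.1% of all 27025 genes with a window. Of the 20S and immunoproteasome genes, 7 of 14 held it (Psma1, Psma2, Psma3, Psma6, Psma7, Psmb3 and Psmb9). TGACNNNGC was present in 6 members (17.1%, against 13.99% of all genes), namely Psmb5, Psmb6, Psmc6, Psmd9, Psmd12 and Psme4. The interferon response element was present in 4 members (11.4%, against 3.99% of all genes), namely Psmb3, Psmd4, Psmd9 and Psme1. Matches of different motifs did not overlap, and in Psmd14 a CCAAT and its reverse complement shared bases. A match is a description of the letters, not a binding site.

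The comparison of NEO1+ with NEO1- LT-HSCs asks which transcripts differ between 2 fractions of the same stem cell gate. No proteasome gene passed the adjusted threshold of 0.05 in edgeR's quasi-likelihood test. The smallest adjusted p was 0.368, for Psma3, and none of the 12203 genes tested passed (0.0%). At an unadjusted p under 0.05, 4 members were lower in NEO1+ (Psma3, Psme2, Psmb4 and Psmb3) and 0 were higher, while 3.49% of all genes tested were lower and 3.11% higher by the same rule. The share of genes lower by this rule was larger among abundant genes, at 5.97% for a log2 CPM of 6 to 8, where 34 of the members lie, and 24.7% at 8 or more, where 2 lie, against 3.48% for 4 to 6, where the other 5 lie. The count of 4 became 2 without NEO1+ library 1, 3 or 5 or without NEO1- library 2, and 6 without NEO1- library 3. DESeq2 called 1 member, Psma3 (adjusted p = 0.0158), and 0.408% of the 13721 genes it tested were called lower.

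The groups did not overlap for 3 members, all lower in NEO1+ (Psma3, Psme2 and Psmb6). The same pattern was found in 1.13% of all genes tested in the lower direction and in 1.35% in the higher, where no member was found. Below 0 on the log2 scale were 27 of the 41 members (65.9%), beside 49.0% of all genes. The median log2 fold change (NEO1+ over NEO1-) of the members was -0.10 and that of all genes 0.01. The median stayed between -0.15 and -0.08 in all 17 alternatives tried, namely other tests, scalings and filters, a replicate block, and libraries left out. In bulk libraries, fewer cells with a transcript and less transcript per cell cannot be told apart.

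**Figure D1:**
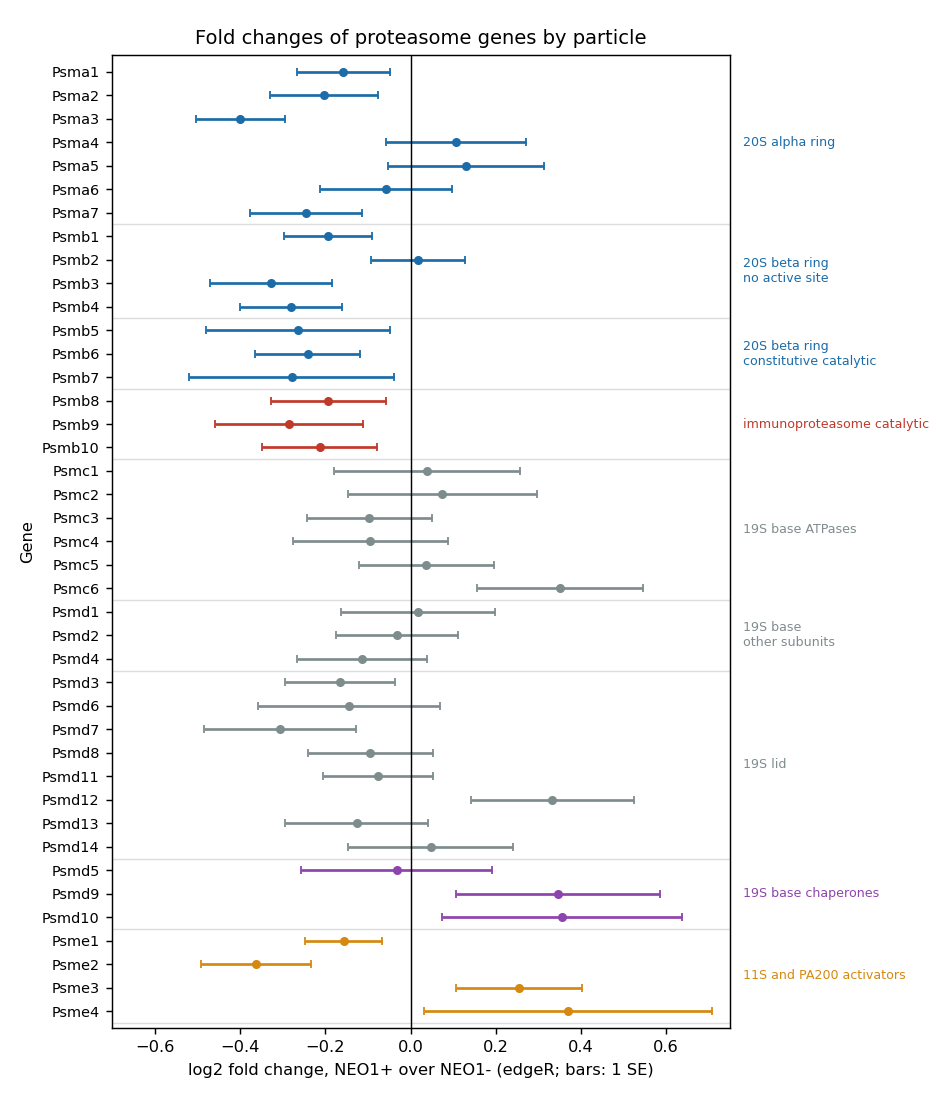
The log2 fold change of each of the 41 genes (NEO1+ over NEO1-, edgeR) is plotted by particle, with bars of 1 SE. The 20S core and immunoproteasome genes lie mainly left of 0 (14 of 17), whereas the 19S subunits straddle it (10 of 17 left of 0).

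By particle, 14 of the 17 genes of the 20S core and immunoproteasome were below 0, with a median of -0.21. That median lay between -0.27 and -0.16 in the 17 alternatives. Of the 17 genes of 19S subunits 10 were below 0, with a median of -0.08, and the median was 0.001 without NEO1- library 1. The difference between the 2 particles was not tested, because the genes are not replicates.

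**Figure D2:**
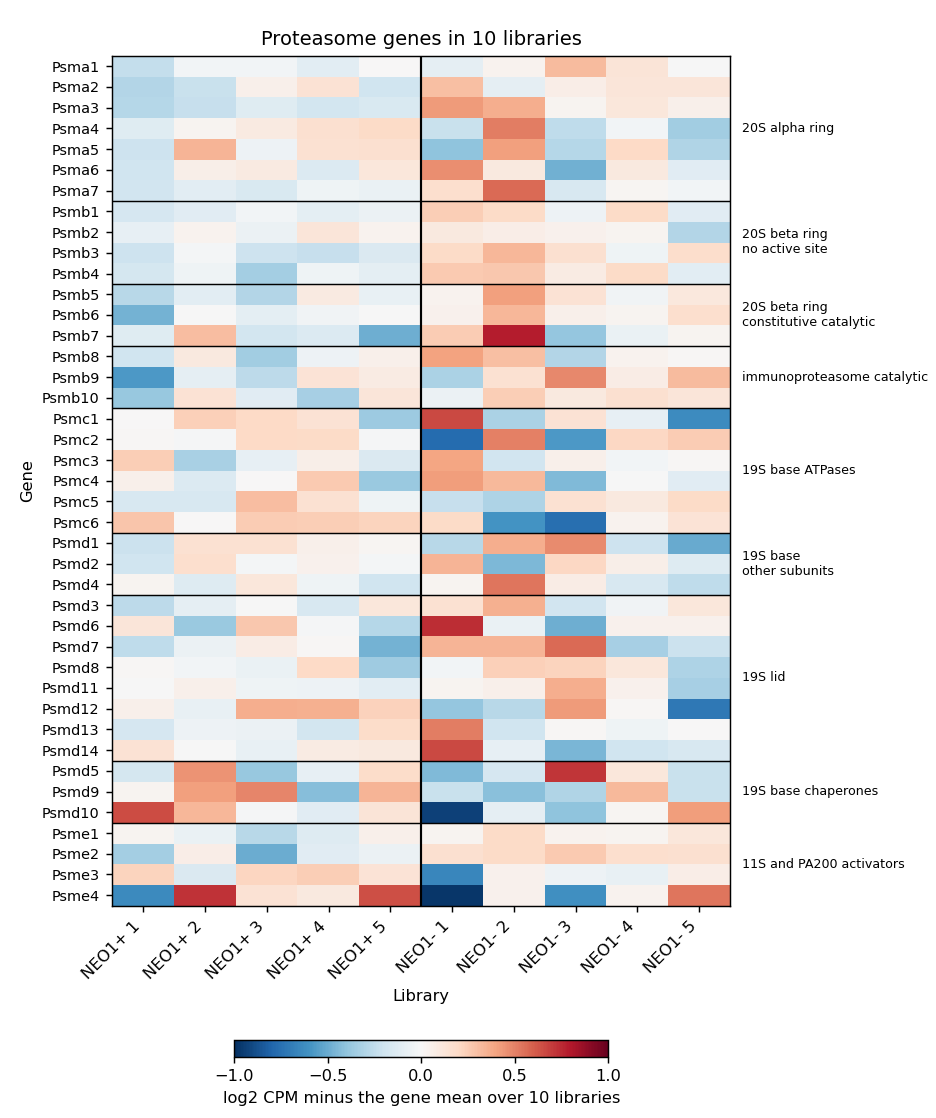
Each row is a gene and each column a library, with color for log2 CPM minus the gene's mean over the 10 libraries. In the 20S rows NEO1- libraries 1 and 2 are mostly red, with medians of 0.17 and 0.30 over the 17 genes, and NEO1+ library 1 is mostly blue, with a median of -0.20.

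Marker lists are given by the number of tested genes with a log2 fold change above 0 and by the range of their summed levels, in NEO1+ first. No gene of these lists passed the adjusted threshold in edgeR. The 12 G2 and M phase genes were all above 0, 7 of them with an unadjusted p under 0.05, and their summed levels were 275 to 503 CPM against 76.7 to 205 CPM. The 12 S phase genes were also all above 0, 6 of them with an unadjusted p under 0.05, and summed to 1140 to 1694 CPM against 628 to 1225 CPM. Megakaryocyte and platelet genes (5 of the 9 tested above 0, 4 with an unadjusted p under 0.05) summed to 340 to 387 CPM against 184 to 248 CPM. Granulocyte genes (6 of 10 above 0) summed to 159 to 4457 CPM against 153 to 2720 CPM. Erythroid genes (6 of 6 tested above 0, 1 with an unadjusted p under 0.05) summed to 23.8 to 272 CPM against 1.56 to 58.4 CPM, with Hba-a2, Hbb-bs and Hbb-bt at 0. Monocyte, macrophage and dendritic genes (1 of 7 above 0) summed to 705 to 1110 CPM against 581 to 1087 CPM, with Siglech at 0. The B lymphoid sums (1 of 2 above 0) were 34.1 to 51.7 CPM against 26.1 to 60.9 CPM, with Pax5, Ms4a1, Igll1 and Rag1 among those at 0. The T and NK sums (1 of 2 above 0) were 11.3 to 26.5 CPM against 3.44 to 51.9 CPM, with Cd3e, Cd8a and Gzma at 0. The part of these transcripts in the proteasome values was not tested.

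In the alpha ring, Psma3 gave the smallest p of all members. Psma3 encodes subunit alpha7 and lies at chr12:70974621-70996347, plus strand (mm10). It stood at 188, 196, 212, 202 and 207 CPM in NEO1+ libraries 1 to 5 and 309, 296, 234, 248 and 239 CPM in NEO1- libraries 1 to 5. Every NEO1+ library was below every NEO1- library, and NEO1- libraries 1 and 2 were the highest. Its fitted level in NEO1+ was 75.8% of that in NEO1- (log2 fold change -0.40, SE 0.10, edgeR adjusted p = 0.368). In the 17 alternatives the unadjusted p stayed between 0.000113 and 0.00751, and the adjusted p between 0.0158 and 0.702.

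Psma7, which encodes subunit alpha4, read 169, 179, 173, 187 and 184 CPM in NEO1+ libraries 1 to 5 and 217, 285, 172, 195 and 189.6 CPM in NEO1- libraries 1 to 5. Its groups overlapped, and NEO1- library 2 was the highest of all (log2 fold change -0.25, SE 0.13, edgeR adjusted p = 0.817; the log2 value was -0.12 without that library). The other alpha genes had log2 fold changes of -0.20 (Psma2), -0.16 (Psma1), -0.06 (Psma6), 0.11 (Psma4) and 0.13 (Psma5), none with an unadjusted p under 0.05. For the alpha ring as a whole, 5 of 7 genes were below 0 and the median was -0.16.

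The beta subunits without an active site complete the inner rings. Psmb4, subunit beta7, lies at chr3:94884093-94886961, minus strand. It stood at 111, 121, 98.4, 121 and 117 CPM in NEO1+ libraries 1 to 5 and 149, 150.4, 132, 143 and 116 CPM in NEO1- libraries 1 to 5. In 4 of the 5 NEO1- libraries it exceeded every NEO1+ library (log2 fold change -0.28, SE 0.12, edgeR adjusted p = 0.705). Without NEO1+ library 3 its unadjusted p was 0.0901.

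Psmb3, subunit beta3, lies at chr11:97703399-97713500, plus strand. Its values were 56.6, 64.1, 56.4, 55.5 and 58.8 CPM in NEO1+ libraries 1 to 5 and 74.3, 82.04, 72.9, 63.1 and 73.5 CPM in NEO1- libraries 1 to 5. A single pair of values crossed, NEO1+ library 2 lying above NEO1- library 4 (log2 fold change -0.33, SE 0.14, edgeR adjusted p = 0.717). The unadjusted p was 0.0778 without NEO1- library 2. Psmb1, subunit beta6, was 167, 174, 185, 176 and 181 CPM in NEO1+ libraries 1 to 5 and 224, 215, 182, 215 and 174 CPM in NEO1- libraries 1 to 5 (log2 fold change -0.19, SE 0.10, edgeR adjusted p = 0.817). Here the NEO1+ libraries lay close together, and NEO1- libraries 3 and 5 lay within their range. Psmb2, subunit beta4, was the only one of the 4 not below 0 (log2 fold change 0.02), and its sign turned under 3 of 17 alternatives.

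**Figure D3:**
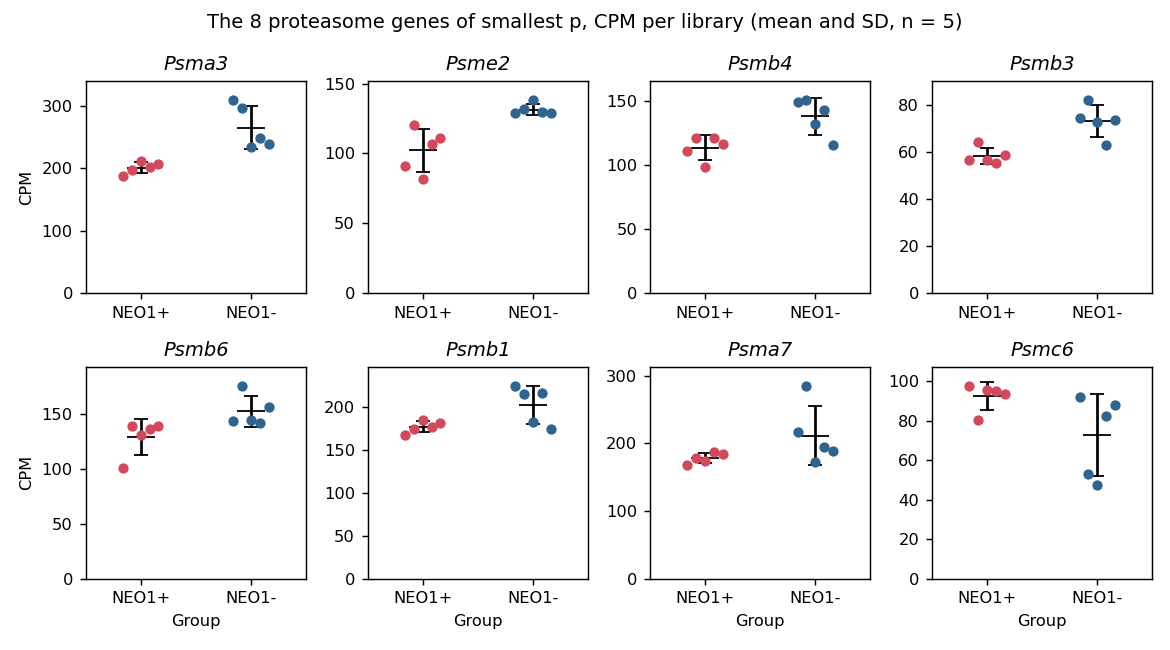
Points are CPM in single libraries for the 8 proteasome genes of smallest p, with the mean and SD of each group (n = 5). The groups are separate for Psma3, Psme2 and Psmb6, and overlap for Psmb4, Psmb3, Psmb1, Psma7 and Psmc6, the only one of the 8 with the higher mean in NEO1+ (92.5 against 72.5 CPM).

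The constitutive catalytic genes Psmb6, Psmb7 and Psmb5 encode beta1, beta2 and beta5, which cut after acidic, basic and hydrophobic residues. Psmb6 was at 100.4, 139, 131, 136 and 139 CPM in NEO1+ libraries 1 to 5 and 144, 176, 145, 142 and 157 CPM in NEO1- libraries 1 to 5. Its groups did not overlap, although the highest NEO1+ and the lowest NEO1- library were close, and NEO1+ library 1 lay well below the others (log2 fold change -0.24, SE 0.12, edgeR adjusted p = 0.807). Psmb7 read 40.7, 55.005, 39.04, 40.3 and 31.6 CPM in NEO1+ libraries 1 to 5 and 52.9, 76.5, 33.9, 42.3 and 45.3 CPM in NEO1- libraries 1 to 5. The highest value was in NEO1- library 2, and the groups overlapped widely (log2 fold change -0.28, SE 0.24, edgeR adjusted p = 0.940). Psmb5 gave 23.6, 26.6, 23.4, 30.4 and 27.2 CPM in NEO1+ libraries 1 to 5 and 29.4, 37.9, 31.6, 27.9 and 30.8 CPM in NEO1- libraries 1 to 5. Most NEO1- libraries were above most NEO1+ libraries, with overlap (log2 fold change -0.26, SE 0.22, edgeR adjusted p = 0.934). All 3 genes were below 0, at a median of -0.26, and none had an unadjusted p under 0.05.

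The immunoproteasome genes Psmb9, Psmb10 and Psmb8 encode the inducible forms beta1i, beta2i and beta5i. Psmb8 and Psmb9 lie in the MHC region of chromosome 17, at chr17:34197721-34201454, plus strand and chr17:34181987-34187764, minus strand. Psmb8 was at 249.9, 307, 226, 277 and 297 CPM in NEO1+ libraries 1 to 5 and 379.9, 354, 235, 294 and 289 CPM in NEO1- libraries 1 to 5. NEO1- libraries 1 and 2 were the highest and NEO1- library 3 was among the lowest (log2 fold change -0.19, SE 0.13, edgeR adjusted p = 0.898). Psmb9 was at 77.1, 107, 95.4, 126 and 122 CPM in NEO1+ libraries 1 to 5 and 92.2, 127, 160.1, 121 and 142 CPM in NEO1- libraries 1 to 5. The lowest value was in NEO1+ library 1 and the highest in NEO1- library 3 (log2 fold change -0.28, SE 0.17, edgeR adjusted p = 0.864). For Psmb10 the values were 96.04, 138, 115, 98.95 and 136 CPM in NEO1+ libraries 1 to 5 and 119.7, 148, 133, 139.6 and 136 CPM in NEO1- libraries 1 to 5. In all, 3 NEO1+ libraries lay below all NEO1- libraries and the other two within their range (log2 fold change -0.21, SE 0.14, edgeR adjusted p = 0.879). All 3 were below 0, at a median of -0.21, with no unadjusted p under 0.05.

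Each immunoproteasome gene can be set against the constitutive gene of the same site within a library, as CPM per kb of exon. The ratio of Psmb8 to Psmb5 lay between 5.03 and 6.36 in NEO1+ and between 4.10 and 7.15 in NEO1-, so the inducible transcript was the higher in all 10 libraries. Psmb10 exceeded Psmb7 in all 10 as well, with ratios of 2.09 to 3.80 and 1.72 to 3.48. Psmb9 was below Psmb6 in all 10, with ratios of 0.431 to 0.547 and 0.378 to 0.652. The group means of these log2 ratios differed by 0.08, 0.02 and -0.04 (NEO1+ minus NEO1-), each less than the SD between libraries of either group. For these genes the longest principal transcript is as long as all exons together, so using it as the length could not change the ratios. Psmb9 shares 212 exon bases with Tap1 on the other strand, Psmb7 shares 405 with Nek6 and Psmb8 shares 498 with Gm20496. Whether the counting used strand is not given in the sources used here. Psmb5 shares 109 exon bases with Mir686 on the same strand. The annotation also holds pseudogenes named Psmb5-ps, Psmb6-ps, Psmb6-ps2 and Psmb7-ps2, all after the constitutive genes. Reads of such copies may be divided or lost, and their effect on the ratios was not tested.

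**Figure D4:**
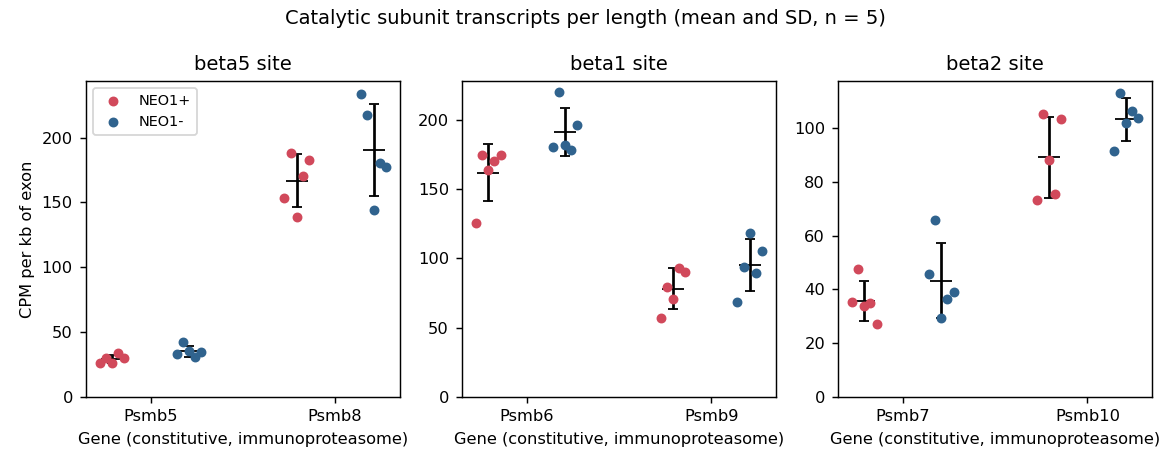
CPM per kb of exon is shown for the constitutive and the immunoproteasome gene of each catalytic site, with points for libraries and the mean and SD of each group (n = 5). Psmb8 lies far above Psmb5, at 167 and 191 CPM per kb against 29.2 and 35.1 in NEO1+ and NEO1-, whereas Psmb9 lies below Psmb6.

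Genes of the interferon-gamma axis, which governs the immunoproteasome in other settings, gave no gene with an unadjusted p under 0.05 among 11. Of these, 5 were above 0 and 6 below. Tap1 and Tap2, the peptide transporter of MHC class I loading, had log2 fold changes of -0.21 and -0.14. Irf1 and Nlrc5, whose products activate transcription of these genes, stood at 0.08 and -0.33. B2m, the light chain of MHC class I, was 2275 ± 293 CPM in NEO1+ against 2336 ± 206 CPM in NEO1- (SD, n = 5 each).

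The 19S base holds the ATPase ring that unfolds substrates. Of the 6 ATPase genes 4 were above 0 and 2 below, with a median of 0.04 that was below 0 in 2 of 17 alternatives. Psmc6 (Rpt4) had the smallest p among them. It read 97.5, 80.4, 95.6, 95.2 and 93.6 CPM in NEO1+ libraries 1 to 5 and 91.9, 52.96, 47.6, 82.1 and 88.1 CPM in NEO1- libraries 1 to 5. All but the lowest NEO1+ library were above all NEO1- libraries, and NEO1- libraries 2 and 3 were far below the rest (log2 fold change 0.35, SE 0.19, edgeR adjusted p = 0.824). The unadjusted p was 0.0396 without NEO1- library 1. For Psmc1 to Psmc5 the log2 fold changes lay between -0.10 (Psmc3) and 0.07 (Psmc2), and each of the 5 changed sign when some single library was left out.

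Among the other base subunits, Psmd4 (Rpn10), a ubiquitin receptor, was at 126, 113, 133, 119.6 and 108 CPM in NEO1+ libraries 1 to 5 and 126, 179, 130.03, 110.2 and 103 CPM in NEO1- libraries 1 to 5. NEO1- library 2 was the highest, and the other NEO1- libraries overlapped with NEO1+ (log2 fold change -0.11, SE 0.15, edgeR adjusted p = 0.994). The scaffold subunits Psmd1 (Rpn2) and Psmd2 (Rpn1) were at 0.02 and -0.03. All 3 changed sign when some single library was left out.

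The lid removes ubiquitin before degradation. Psmd12 (Rpn5), a scaffold subunit of the lid, had the smallest p of the 8 lid genes. Its values were 124, 114, 154, 153 and 140.3 CPM in NEO1+ libraries 1 to 5 and 91.4, 98.7, 160.4, 121 and 72.7 CPM in NEO1- libraries 1 to 5. The spread in NEO1- covered the whole NEO1+ range, with library 5 the lowest and library 3 the highest (log2 fold change 0.33, SE 0.19, edgeR adjusted p = 0.846). Without NEO1- library 3 its unadjusted p was 0.0083. Psmd7 (Rpn8), the partner of the deubiquitinase, stood at 144 ± 21.3 CPM in NEO1+ against 178 ± 46.1 CPM in NEO1- (SD, n = 5 each). Its log2 fold change was -0.31, with an unadjusted p of 0.109. Psmd14 (Rpn11), the deubiquitinase itself, was at 0.05. The remaining lid genes were between -0.16 (Psmd3) and -0.08 (Psmd11). In all, 6 of the 8 lid genes were below 0, with a median of -0.11.

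Chaperones guide the assembly of the 19S base and are not part of the finished particle. Psmd9 (p27) read 34.96, 45.6, 48.2, 25.6 and 43.5 CPM in NEO1+ libraries 1 to 5 and 29.5, 25.7, 27.9, 43.1 and 29.5 CPM in NEO1- libraries 1 to 5. Library 4 was the exception in each group, the lowest of NEO1+ and the highest of NEO1- (log2 fold change 0.35, SE 0.24, edgeR adjusted p = 0.898). Without both libraries numbered 4 the log2 value was 0.61 and the unadjusted p 0.0233. Psmd10 (gankyrin) was 33.6 ± 7.43 CPM in NEO1+ against 26.3 ± 8.699 CPM in NEO1- (SD, n = 5 each). Its log2 fold change was 0.36, and Psmd5 (S5b) was at -0.03. Psmd9 shares 1849 exon bases with Gm26745 on the opposite strand. The core has its own assembly factors, of which Pomp, the maturation factor of the 20S beta ring, was 112 ± 12.98 CPM in NEO1+ against 136 ± 21.7 CPM in NEO1- (SD, n = 5 each). The groups overlapped for Pomp (log2 fold change -0.27, SE 0.14, edgeR adjusted p = 0.806). The chaperones Psmg1 to Psmg4, which build the alpha ring, were at -0.20, 0.09, -0.18 and -0.11.

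The activators open the core without ubiquitin. Psme1 and Psme2 encode the alpha and beta subunits of the 11S activator PA28, and lie near each other on chromosome 14, at chr14:55578123-55581529, plus strand and chr14:55587441-55591113, minus strand. Psme2 was at 91.05, 121, 81.9, 107 and 111 CPM in NEO1+ libraries 1 to 5 and 129, 132, 138, 129 and 129 CPM in NEO1- libraries 1 to 5. All NEO1+ libraries were below all NEO1- libraries, and the NEO1- libraries were within a narrow range (log2 fold change -0.36, SE 0.13, edgeR adjusted p = 0.586). Its fitted level in NEO1+ was 77.8% of that in NEO1-. In the 17 alternatives its unadjusted p stayed between 0.00405 and 0.0411, and the smallest adjusted p was 0.162. Psme1 read 289, 271, 235, 259.9 and 293 CPM in NEO1+ libraries 1 to 5 and 290.1, 324, 292, 289 and 307 CPM in NEO1- libraries 1 to 5. Here NEO1+ library 5 was within the NEO1- range, library 1 lay just below it and the other 3 were further below (log2 fold change -0.16, SE 0.09, edgeR adjusted p = 0.845).

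The nuclear activator PA28 gamma is encoded by Psme3. It read 153, 119, 153, 156 and 145 CPM in NEO1+ libraries 1 to 5 and 83.5, 136, 127, 125 and 138 CPM in NEO1- libraries 1 to 5. Most NEO1+ libraries were above all NEO1- libraries, NEO1+ library 2 being the exception, and NEO1- library 1 was far below the rest (log2 fold change 0.25, SE 0.15, edgeR adjusted p = 0.848). Psme4 encodes PA200, which acts in chromatin and spermatogenesis. Psme4 was at 17.3, 44.4, 29.7, 28.8 and 41.95 CPM in NEO1+ libraries 1 to 5 and 13.7, 27.7, 17.6, 27.6 and 39.1 CPM in NEO1- libraries 1 to 5. Its libraries ranged widely in both groups and overlapped (log2 fold change 0.37, SE 0.34, edgeR adjusted p = 0.953). Of the 4 activator genes, 2 were below 0 and 2 above, with a median of 0.05.

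Levels can be compared between genes only per length, here as CPM per kb of exon. Psme1 was the highest member, at 242 ± 21.4 CPM per kb in NEO1+ and 270.2 ± 13.6 in NEO1-. Psmb8, Psmb6, Psmb2 and Psma7 followed, at means over all 10 libraries of 179, 176, 176 and 165 CPM per kb. In NEO1+ Psmb2 was 177 ± 10.2 and Psma7 151 ± 6.43 CPM per kb, so these were outside each other's SD. The lowest were Psmd5 (21.98), Psmd10 (20.4), Psmd9 (13.6) and Psme4 (4.43), so the 3 base chaperones and PA200 were the 4 lowest of the 41. Subunits present in equal number in the particle differed in transcript level. Within the alpha ring, Psma7 exceeded Psma2 (43.3 CPM per kb), and among the constitutive beta genes Psmb6 exceeded Psmb5 (32.1 CPM per kb). These levels depend on the annotated exons: with the longest principal transcript Psmb1 was 100.5 CPM per kb in NEO1+, against 51.5 with all exons. By the same change Psma7 was 195 CPM per kb in NEO1+, against 151, and so above Psmb8, Psmb6 and Psmb2.

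The spread between libraries was larger in NEO1- than in NEO1+. The SD of log2 CPM was larger in NEO1- for 34 of the 41 members (82.9%), as it was for 78.3% of all genes tested. The median SD over the members was 0.16 in NEO1+ and 0.29 in NEO1-. For the 19S subunits the larger SD was in NEO1- for 16 of 17 genes, at medians of 0.15 and 0.35, and for the 17 core and immunoproteasome genes in 14, at medians of 0.14 and 0.17.

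The genes that encode ubiquitin include Ubb, which carries ubiquitin repeats, and Rps27a, which fuses ubiquitin to a ribosomal protein. Rps27a was at 299, 289, 288, 256 and 295 CPM in NEO1+ libraries 1 to 5 and 377, 462, 324, 400.1 and 318 CPM in NEO1- libraries 1 to 5. All NEO1+ libraries were below all NEO1- libraries (log2 fold change -0.40, SE 0.11, edgeR adjusted p = 0.390), and DESeq2 gave an adjusted p of 0.0366. Ubb, named after its values were seen, was 69.9 ± 4.37 CPM in NEO1+ against 83.03 ± 9.38 CPM in NEO1- (SD, n = 5 each), again without overlap but with an unadjusted p of 0.0942.

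Of 41 other genes of the pathway in the table, 39 were tested, 21 of them above 0 and 18 below. At an unadjusted p under 0.05, 2 were lower, Rps27a among them, and 1 was higher, beside 3.49% lower and 3.11% higher of all genes tested. None passed the adjusted threshold in edgeR. The count of 3 stayed the same with the 11 genes of the interferon-gamma axis added. That joint count became 7 without NEO1- library 1 and 2 without any of NEO1+ libraries 2 to 5. The higher one was Faf2, a cofactor of the segregase VCP at the endoplasmic reticulum. Faf2 was at 49.9, 73.5, 65.2, 59.1 and 62.9 CPM in NEO1+ libraries 1 to 5 and 46.3, 30.1, 25.4, 60.8 and 50.3 CPM in NEO1- libraries 1 to 5, with NEO1- libraries 2 and 3 the lowest (log2 fold change 0.54, SE 0.24, edgeR adjusted p = 0.723). Its unadjusted p was under 0.05 in 10 of the 17 alternatives. Vcp itself, which extracts substrates from complexes and membranes, was 411 ± 32.6 CPM in NEO1+ against 381 ± 47.4 CPM in NEO1- (SD, n = 5 each). Nfe2l1 (NRF1), which raises proteasome transcription when the proteasome fails, stood at 0.00, and Ddi2, the protease that activates it, at -0.71 with an SE of 0.71. Usp14 and Uchl5, deubiquitinases that bind the 19S particle, were at 0.04 and 0.36. The thymic subunit Psmb11 had 0 counts in all 10 libraries, and the testis subunit Psma8 ranged from 0 to 41.1 CPM (log2 fold change 1.26, SE 0.85, edgeR adjusted p = 0.896). Psme2b, a close copy of Psme2, was counted at 8.26 to 18.7 CPM, so reads of such copies may be divided between them.

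Cytosolic ribosomal protein genes and respiratory complex subunit genes were taken through the same fit as 2 other large complexes. Rps27a is counted among the ribosomal protein genes as well as in the pathway list. Of 77 ribosomal protein genes tested 74 were below 0, the median log2 value being -0.35, and 55 had an unadjusted p under 0.05. Of 75 respiratory genes 63 were below 0, with a median of -0.27, and 12 had an unadjusted p under 0.05. The groups did not overlap for 15 and 7 of these genes, all lower in NEO1+, beside 1.13% of all genes tested in that direction. The 55 and 12 were all lower too, beside 3.49% of all genes tested and 24.7% of those with a log2 CPM of 8 or more. Both medians were further below 0 than that of the 20S core and immunoproteasome genes (-0.21).

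Fold changes also varied with transcript length over all genes. Among genes with exons under 1000 bases 77.9% were below 0, with a median of -0.29, and among those with a log2 CPM of 6 or more, the range of most members, 95.4% of 109 were below 0, with a median of -0.31. From 1000 to 2000 bases the abundant genes had a median of -0.09, from 2000 to 4000 bases 0.02, and above that 0.02. The median exon length was 1183 bases for the core and immunoproteasome genes, 1989 for the 19S subunits, 975 for the ribosomal protein genes and 3239 for all genes. Of the core genes, 4 were under 1000 bases (median -0.25), 10 were from 1000 to 2000 bases (-0.20) and 3 were from 2000 to 4000 bases (-0.20). In those last 2 ranges the 19S subunits had medians of -0.09 (9 genes) and -0.05 (8 genes). Length moved with the difference between particles, and its part in the result was not tested.

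**Figure D5:**
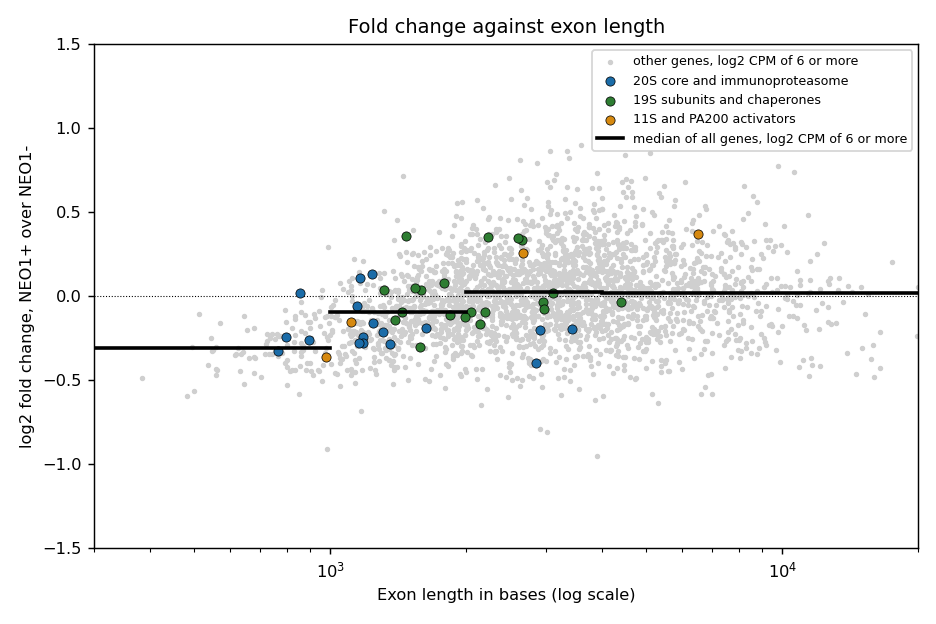
The log2 fold change (NEO1+ over NEO1-) is plotted against exon length on a log axis for genes with a log2 CPM of 6 or more in gray (11 of 2582 lie outside the axes) and for all 41 proteasome genes in color, with black lines for the medians of all such genes per length range. Short genes lie below 0, with a median of -0.31 under 1000 bases, where the 4 core genes have a median of -0.25.

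The same libraries stood out for other short transcripts. Over 105 abundant genes under 1000 bases that are no proteasome genes, the median deviation from the gene mean (log2) was -0.14, -0.08, -0.21, -0.12 and -0.14 in NEO1+ libraries 1 to 5 and 0.22, 0.40, 0.06, 0.12 and -0.02 in NEO1- libraries 1 to 5. Over the 17 core and immunoproteasome genes it was -0.20, -0.02, -0.11, -0.05 and -0.005 in NEO1+ and 0.17, 0.30, 0.05, 0.08 and 0.01 in NEO1-. NEO1- library 2 was the highest and NEO1- library 1 the next in both sets. Over all genes tested the median deviation was 0.07, 0.10, 0.11, 0.10 and 0.10 in NEO1+ libraries 1 to 5. It was -0.02, 0.05, -0.001, 0.10 and 0.06 in NEO1- libraries 1 to 5, so 0 is not the median gene of each library. The 105 genes were not cleared of ribosomal protein and respiratory complex genes, so length and gene family are not separated here. Ribosomal protein genes (77) were at -0.13, -0.08, -0.21, -0.28 and -0.14 in NEO1+ and 0.29, 0.46, -0.005, 0.13 and -0.05 in NEO1-. For the 19S subunits the deviations were 0.01, -0.05, 0.08, 0.06 and -0.04 in NEO1+ and 0.19, -0.06, 0.08, -0.002 and -0.13 in NEO1-, with NEO1- library 1 again the highest and NEO1- library 2 below 0.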

How the data were processed

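The data are bulk RNA-seq of 5 NEO1+ and 5 NEO1- libraries. The authors deposited raw counts per gene symbol, the unit used for all tests, and log2 values that equal log2 of the count over a size factor, plus 1 (largest residual 5.15e-14), used in 1 alternative. STAR 2.4, bcl2fastq 2.18, DESeq2 1.22.2 and the mm10 build are named per the submitters' processing notes; the counting tool, annotation and strand use are not given in the sources used here. Of 24544 genes 8860 had no count.

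Counts were tested with edgeR 4.0.16 (R 4.3.3; filterByExpr, TMM, robust quasi-likelihood test, Benjamini-Hochberg over 12203 genes, threshold 0.05). The common biological coefficient of variation was 0.717. CPM uses TMM library sizes, and log2 CPM a prior count of 2. SE was taken from the log2 fold change and the F statistic. Lengths are exon unions of GENCODE M21 (98.6% of genes tested matched), promoters RefSeq. Alternatives were DESeq2 1.42.0, limma 3.58.1, RLE scaling, no filter, no Rn45s, a replicate block and each library left out. Leaving out both libraries numbered 4, and the principal transcript as length, were chosen after seeing the data. Within groups no 2 libraries agreed within sampling noise (chi-square per degree of freedom at least 83.1 over 20 pairs). Levels in each library are printed for the catalytic and activator genes, the member of smallest p in each subgroup, the 10 members of smallest p, and up to 6 pathway genes with p under 0.05. Some genes counted in the pathway, interferon and marker lists are not reported here by name. The members and lists were chosen with earlier results of these data known.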

Additional observations from a re-analysis of the deposited data

Results flagged for a closer look

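Over the 41 proteasome genes, 82 groups of 5 libraries were examined for a library set apart from the rest of its group by Dixon's criterion (0.71 for 5 values), and 6 were found where chance gives about 4.1. Values are log2 CPM. Psmb2 was at 6.94 in NEO1- library 5, with the next library at 7.26. Psmb6 was at 6.65 in NEO1+ library 1, with the next at 7.03. Psmc6 was at 6.33 in NEO1+ library 2, with the next at 6.55. Psmd9 was at 5.43 in NEO1- library 4, above the next at 4.89. Psme3 was at 6.90 in NEO1+ library 2, with the next at 7.18, and at 6.39 in NEO1- library 1, with the next at 6.96.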

How the results depend on the processing

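Psma3 and Psme2 were lower in NEO1+ with an unadjusted p under 0.05 in all 17 alternatives, and the 20S core and immunoproteasome median was below 0 in all 17. DESeq2 called 1 proteasome gene (Psma3) and 1 other pathway gene (Rps27a), where edgeR called 0. The labels do not say what equal replicate numbers share: deviations of same-numbered libraries correlated at 0.004 to 0.036, and 4 of 10 libraries correlated best with their own number. With the replicate number as a block the members with an unadjusted p under 0.05 were 2 lower and 1 higher (Psmd12), in place of 4 and 0, and Psmd5 reversed to 0.0045. Leaving out 1 library gave 2 to 6 lower and 0 to 1 higher members. It gave 2 to 7 genes of the pathway and interferon-gamma lists together, in place of 3. Without both libraries numbered 4 the higher count was 1 (Psmd9), and signs reversed for Psmb2 (-0.0050), Psmc1 (-0.0098), Psmd1 (-0.039), Psmd14 (-0.0083) and Psmd5 (0.0063). Leaving out single libraries reversed genes near 0, with log2 ranges of Psma6 -0.16 to 0.072, Psmb2 -0.046 to 0.045, Psmc1 -0.087 to 0.25, Psmc2 -0.068 to 0.23, Psmc3 -0.18 to 0.0011, Psmc4 -0.20 to 0.0073, Psmc5 -0.044 to 0.092, Psmd1 -0.089 to 0.16, Psmd2 -0.13 to 0.057, Psmd4 -0.18 to 0.030, Psmd6 -0.26 to 0.067, Psmd11 -0.16 to 0.016, Psmd13 -0.19 to 0.0066, Psmd14 -0.049 to 0.27 and Psmd5 -0.16 to 0.19. In limma the median of all genes was 0.11 rather than 0.01, with the proteasome median at -0.10 in both. In promoters of 250 bases before the start, the antioxidant, CCAAT and interferon motifs were in 5, 13 and 3 members. The causes of these shifts were not tested. The lowest count of a member in a library was 360, and such counts include PCR copies, so how far the number of molecules limits the values was not tested.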
